A study of Mus musculus with 9 samples.

Results

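The proteasome is the barrel-shaped protease that degrades proteins tagged with ubiquitin. Its 20S core is a stack of alpha and beta rings, with the cutting sites on the inner faces of 3 beta subunits, and the 19S particle caps the core, binds ubiquitin chains and unfolds the substrate with a ring of ATPases. Other caps (PA28, PA200) open the core without using ubiquitin, and dedicated chaperones that leave the finished particle build both parts. In muscle, the pathway is known for breaking down myofibrillar protein during atrophy, after ligases such as MAFbx and MuRF1 have tagged it.

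The genes described here are those whose mouse symbol starts with Psma, Psmb, Psmc, Psmd, Psme, Psmf or Psmg. Of 54 such symbols among 51482 genes with a symbol, 4 were pseudogenes and 50 protein-coding, and 47 of the 50 reached 1 FPKM in 3 or more of the 9 libraries. FPKM is the number of sequenced fragments per kilobase of transcript, scaled to the mapped fragments of the library. These 47 genes belong to the 13674 genes that passed this filter and were tested. One of them, Psmc3ip, encodes HOP2, a partner in meiotic recombination that is only named after a proteasome subunit. It is therefore given apart, and 46 genes remain without it. The 3 protein-coding genes below the filter were Psma8, the testis alpha subunit, listed at 0 in all libraries, Psmb11, the thymus beta subunit, at 0 to 0.0955 FPKM, and Psmb9. Psmb9 lay just outside, with 0.356, 0.615 and 0.265 FPKM in HL, 0.437, 0.321 and 0.562 FPKM in H, and 0.892, 0.830 and 0.769 FPKM in NC. The lowest members inside were Psme2b (2.40 FPKM over all libraries) and Psmb8 (2.87 FPKM).

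Libraries of enriched mRNA came from C2C12, an immortalised line of mouse myoblasts able to form myotubes, in 3 groups of 3 samples. The HL group received 25 mmol/L glucose with 200 nmol/L liraglutide, an agonist of the GLP-1 receptor, the H group received 25 mmol/L glucose, and the NC group was the control, and all were kept for 48 h. The glucose level of NC is not given in the sources used here, no osmotic control library was analysed, and the labels do not say whether the 3 samples of a group were separate cultures, so the p-values cover the spread among these samples alone. Depth, recovered from the steps between low values, was 17.2 to 22.8 M fragments per library. Summed over all genes, the deposited values came to 698627 to 731929 FPKM in HL, 649733 to 683362 in H and 757000 to 765681 in NC, so a rescaling to a common sum (TPM) was run beside the deposited scale. The median SD between replicates of log2(FPKM + 0.1) was 0.09 in HL, 0.17 in H and 0.07 in NC. Of 10 myoblast markers, 8 reached 1 FPKM in every library, and Pax7 and Myf6 did not. The summed level of the 10 was 720 to 742 FPKM in HL, 342 to 498 in H and 488 to 502 in NC. Of 15 macrophage markers, 3 were tested (Csf1r, Cd14 and Cd68), and the sum of the 15 was 50.1 to 52.7 FPKM in HL, 171 to 248 in H and 33.3 to 34.8 in NC, while Tyrobp, C1qa, C1qb and C1qc were listed at 0 in all 9 libraries. Of 12 myotube markers, 4 were tested, and the sum of the 12 was 65.2 to 69.8 FPKM in HL, 25.1 to 33.2 in H and 39.2 to 40.5 in NC. The part of these marker levels in the results below was not tested.

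The main pattern was a lower level of most proteasome genes in H than in NC, with 35 of 47 members lower and 2 higher at an adjusted p under 0.05 (limma on log2(FPKM + 0.1), used throughout). Over all tested genes, 33.0% were lower and 27.1% higher by the same rule. The median log2 fold change of the 47 members was -0.34, against -0.04 over all tested genes. At an adjusted p under 0.05, Psmc3ip and Psmg2 were lower by more than 2-fold and no member was higher by more than 2-fold, beside 5.75% and 10.3% of all tested genes. In HL against H, 15 members were higher and 4 lower, beside 26.7% and 21.7% of all tested genes. Their median log2 fold change was 0.10, against 0.04 over all tested genes. In HL against NC, 37 members were lower and 1 higher, beside 27.2% and 21.6%, with medians of -0.31 for the members and -0.04 for all tested genes.

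The scale moved these counts. After rescaling to TPM, all tested genes together had a median log2 fold change of 0.15 in H against NC, and 21 members were lower and 4 higher, with a median of -0.15. Over all tested genes, 20.9% were lower and 38.6% higher in TPM. All 21 were also lower on the deposited scale and after centring on the median. The calls of lower members lost in TPM were those of Psma2, Psma3, Psma6, Psmb1, Psmb7, Psmc1, Psmc2, Psmc5, Psmd2, Psmd6, Psmd12, Psme1, Psme3 and Psme4, and the calls gained were higher levels of Psmd8 and Psmf1. In HL against H, TPM gave 10 higher and 10 lower members with a median of -0.00049, against -0.06 over all tested genes. Of all tested genes, 18.4% were higher and 27.6% lower, so these members' counts were close to the background. It lost the higher calls of Psma5, Psma7, Psmb6, Psmd13 and Psmd14 and gained lower calls of Psma2, Psmb5, Psmc2, Psmd9, Psmd10 and Psmf1. In HL against NC it gave 22 lower and 2 higher, beside 19.4% and 27.0% of all tested genes, with medians of -0.22 for the members and 0.05 for all tested genes, and lost the lower calls of Psma1, Psma3, Psma5, Psmb1, Psmb2, Psmb4, Psmb6, Psmc5, Psmd1, Psmd9, Psmd10, Psmd11, Psmd13, Psme1 and Psme3. Relative to the median of all tested genes, the members thus lay 0.30 lower in H against NC on the deposited scale.

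**Figure D1:**
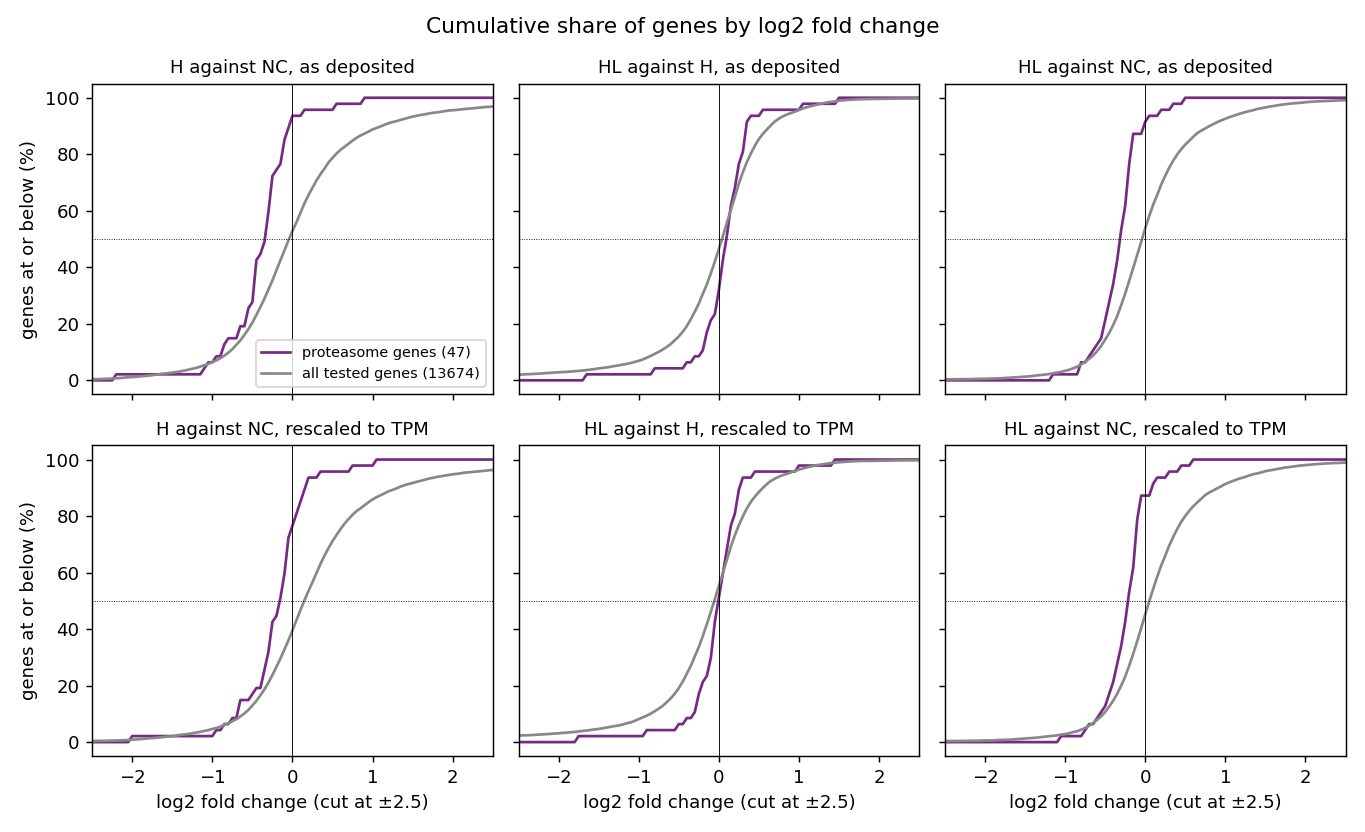
Cumulative share of genes (vertical axis, %) at or below each log2 fold change (horizontal axis) for the 47 proteasome genes and the 13674 tested genes, on the deposited scale (top row) and after rescaling to TPM (bottom row). In H against NC the curve of the proteasome genes crosses 50% at a log2 fold change of -0.34 on the deposited scale and at -0.15 in TPM, left of the curve of all tested genes in both rows, which crosses at -0.04 and 0.15.

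**Figure D2:**
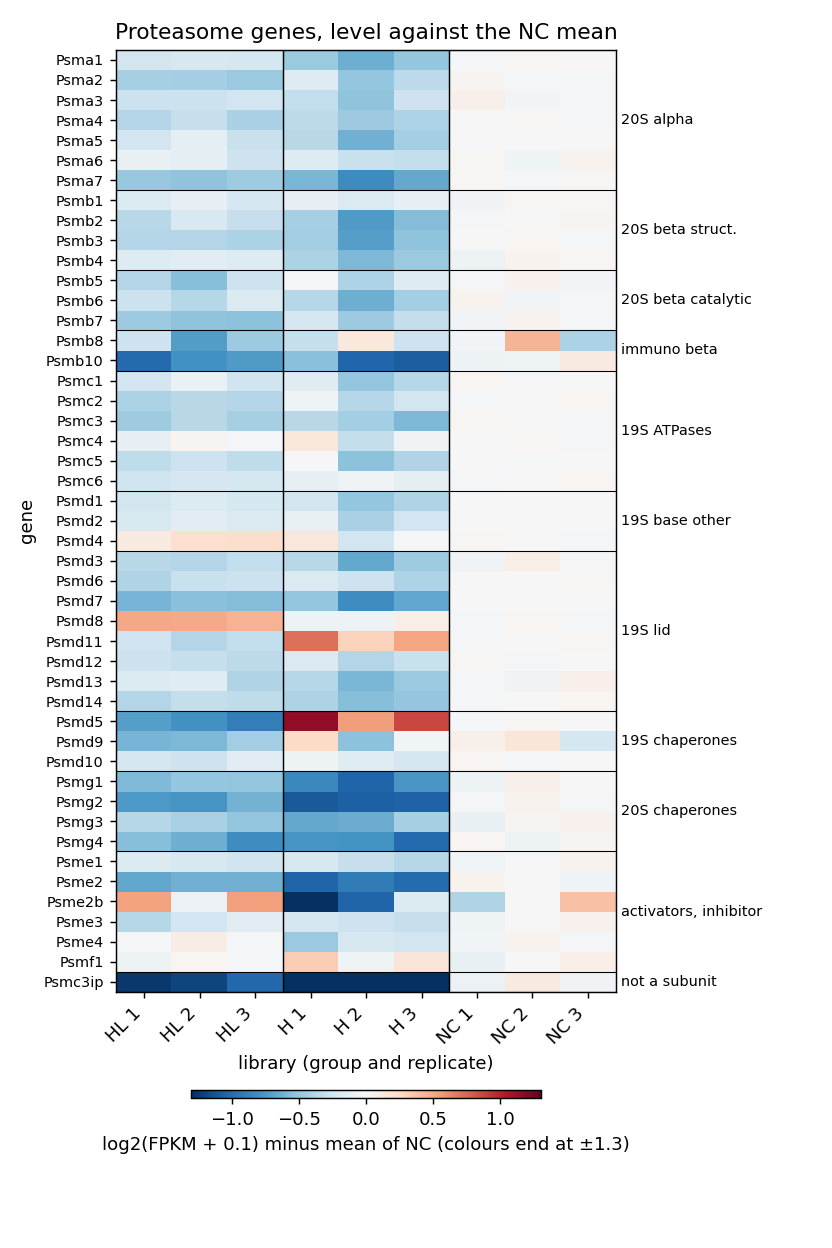
log2(FPKM + 0.1) of each of the 47 members in each library minus the mean of the 3 NC libraries, with genes as rows grouped by role and the libraries of HL, H and NC as columns. Blue is lower and red higher than the NC mean, and the colours end at ±1.3. Most rows are blue in HL and H, while Psmd5 and Psmd11 are red in H and blue in HL, and Psmd8 is red in HL.

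The 20S core was lower in H and in HL than in NC, by margins that depended on the scale. On the deposited scale its 14 standard subunits had 13 members lower and 0 higher in H against NC, 6 higher and 1 lower in HL against H, and 13 lower and 0 higher in HL against NC. In TPM the counts were 8 lower in H against NC, 3 higher and 3 lower in HL against H, and 6 lower in HL against NC. Of all tested genes, 33.0% were lower and 27.1% higher in H against NC on the deposited scale, and 20.9% and 38.6% in TPM. For HL against H these shares were 21.7% and 26.7% on the deposited scale, and 27.6% and 18.4% in TPM. For HL against NC they were 27.2% and 21.6%, then 19.4% and 27.0%. The core's TPM counts in HL against H were near these shares. Summed over the 14 genes, the core held 2416 ± 21.1 FPKM in HL, 2202 ± 166 FPKM in H and 2984 ± 2.87 FPKM in NC (SD, n = 3 each). As a share of the library total this was 0.339%, 0.330% and 0.391% in HL, H and NC. Within the core, levels spanned a 4.94-fold range in HL, a 4.05-fold range in H and a 4.73-fold range in NC. Psma2 was the lowest and Psmb3 the highest subunit in each group.

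All 7 subunits of the alpha ring, which gates the entry to the core, fell in H against NC on the deposited scale. Their log2 fold changes were -0.70 to -0.25, and 33.0% of all tested genes were lower. The calls of Psma2, Psma3 and Psma6 were lost in TPM, which left 4 of 7, beside 20.9% of all tested genes. Psma7 fell most. Its values were 208, 202 and 211 FPKM in HL, 192, 165 and 184 FPKM in H, and 294, 286 and 294 FPKM in NC. The H libraries lay below every HL library, and HL below every NC library (log2 fold change -0.70, SE 0.06, adjusted p = 9.37e-06 for H against NC, and log2 fold change -0.49, SE 0.06, adjusted p = 1.76e-04 for HL against NC). Its change in HL against H (log2 fold change 0.20, adjusted p = 0.0183) was no longer past the threshold in TPM (0.11, adjusted p = 0.189). Psma1 had 126, 129 and 127 FPKM in HL, 107, 95.8 and 105 FPKM in H, and 147, 151 and 149.6 FPKM in NC. Again the 3 groups did not overlap, with Psma1 lower in H than in NC (log2 fold change -0.54) and higher in HL than in H (log2 fold change 0.32, SE 0.05, adjusted p = 8.99e-04). Psma5 was also higher in HL than in H (log2 fold change 0.25). Psma2 had 63.2, 62.6 and 61.0 FPKM in HL, 75.7, 60.0 and 67.1 FPKM in H, and 87.4, 84.1 and 84.3 FPKM in NC. Its HL and H libraries overlapped, and HL fell against NC by 0.45 on the log2 scale.

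The 4 beta subunits without a cutting site, Psmb1, Psmb2, Psmb3 and Psmb4, all fell in H against NC on the deposited scale, with log2 fold changes of -0.58 to -0.13, although Psmb1 turned to 0.06 in TPM. Psmb3, the member of the highest mean level, had 310.4, 311 and 303 FPKM in HL, 296, 246 and 281 FPKM in H, and 403, 411 and 396 FPKM in NC. All H and HL values lay below the NC values, with log2 fold changes of -0.56 in H and -0.39 in HL against NC. Psmb4 had 245, 251 and 247 FPKM in HL, 207, 184 and 199 FPKM in H, and 264, 285 and 282 FPKM in NC. HL rose above H without overlap (log2 fold change 0.34, SE 0.05, adjusted p = 9.77e-04) and stayed below NC by 0.16 on the log2 scale, a call that was lost in TPM (adjusted p = 0.398). Psmb2 likewise had log2 fold changes of -0.58 in H against NC, 0.29 in HL against H and -0.28 in HL against NC.

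Each of the 3 catalytic beta subunits carries 1 cutting activity. Psmb5, the chymotrypsin-like subunit and the main target of bortezomib, had 83.4, 73.8 and 89.7 FPKM in HL, 107, 82.2 and 96.3 FPKM in H, and 107, 112 and 106 FPKM in NC. H overlapped both other groups (H against NC, log2 fold change -0.19, SE 0.10, adjusted p = 0.125), while HL fell against NC (log2 fold change -0.40, SE 0.10, adjusted p = 0.00954). Psmb6, the caspase-like subunit, had 196, 184 and 209 FPKM in HL, 185, 154 and 176 FPKM in H, and 246, 233 and 236 FPKM in NC. It fell in H against NC (log2 fold change -0.48, SE 0.07, adjusted p = 4.45e-04). In HL against H it sat at the threshold, with overlapping values (log2 fold change 0.20, SE 0.07, adjusted p = 0.0497), and was called in 8 of the 19 alternative settings. Psmb7, the trypsin-like subunit, had 142, 136 and 136 FPKM in HL, 167, 142 and 159 FPKM in H, and 192, 202 and 195 FPKM in NC. It fell in H against NC (log2 fold change -0.34), a call lost in TPM, and in HL against NC (log2 fold change -0.51, adjusted p = 2.06e-04). It was also lower in HL than in H, just past the threshold (log2 fold change -0.17, SE 0.06, adjusted p = 0.0454), in 7 of the 19 alternative settings.

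The immunoproteasome subunits, which replace the catalytic ones after interferon and shape peptides for MHC class I, were low. Psmb10 had 8.33, 9.73 and 10.1 FPKM in HL, 11.5, 8.19 and 7.99 FPKM in H, and 16.1, 16.3 and 18.4 FPKM in NC. The HL and H values overlapped each other and lay below all NC values, with log2 fold changes of -0.88 in H (SE 0.14, adjusted p = 5.44e-04) and -0.85 in HL (adjusted p = 0.00114). Psmb8 had 2.69, 1.92 and 2.32 FPKM in HL, 2.63, 3.58 and 2.67 FPKM in H, and 3.17, 4.46 and 2.43 FPKM in NC. Its groups overlapped and it passed in no comparison. At these levels the immunoproteasome subunits stood well below Psmb5, Psmb6 and Psmb7 per unit of length.

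On the deposited scale most subunits of the 19S particle were lower in H and in HL than in NC. Of the 17 subunits with these symbols (chaperones not counted), 12 were lower and 1 higher in H against NC. In HL against H, 3 were higher and 2 lower, and in HL against NC, 12 were lower and 1 higher. The deposited-scale shares of all tested genes are given above. In TPM these counts were 6 lower and 2 higher, 1 higher and 3 lower, and 8 lower and 2 higher, beside the TPM shares of all tested genes given above. Summed, these 17 subunits held 2231 ± 47.5 FPKM in HL, 2134 ± 191 FPKM in H and 2533 ± 3.68 FPKM in NC (SD, n = 3 each). The share of the library total was 0.313% in HL, 0.320% in H and 0.332% in NC.

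Among the 6 ATPases, which unfold the substrate, 4 fell in H against NC on the deposited scale and 1 in TPM. Beside these stood 33.0% and 20.9% of all tested genes. Psmc3 had 195, 209 and 199 FPKM in HL, 209, 197 and 179 FPKM in H, and 273, 267 and 265 FPKM in NC. HL and H overlapped and both lay below NC, with log2 fold changes of -0.46 in H and -0.42 in HL. Psmc1 fell in H (log2 fold change -0.34, adjusted p = 0.00645) but did not pass in HL against NC (log2 fold change -0.20, adjusted p = 0.0834). Its fall in H did not pass in TPM (adjusted p = 0.112). Psmc4 passed in no comparison (log2 fold changes -0.07, 0.04 and -0.03 in H against NC, HL against H and HL against NC). Psmc6 did not pass in H against NC and was lower in HL than in H (log2 fold change -0.14, adjusted p = 0.0198). Psmc2 fell in HL against NC by 0.39 on the log2 scale.

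Of the other base subunits, the scaffolds Psmd1 and Psmd2 fell in H against NC (log2 fold changes -0.38 and -0.25). The call of Psmd2 was lost in TPM (log2 fold change -0.06, adjusted p = 0.465). Psmd4, a receptor for ubiquitin chains, had 213, 229 and 230.3 FPKM in HL, 218, 166 and 195 FPKM in H, and 198, 197 and 195 FPKM in NC. The HL values lay above all NC values and overlapped those of H, and no comparison passed on the deposited scale, whereas in TPM the log2 fold change of HL against NC was 0.28 (adjusted p = 0.0205).

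The lid carries the deubiquitinase Psmd14 on a frame of scaffold subunits. On the deposited scale 6 of its 8 members fell in H against NC, beside 33.0% of all tested genes. Rescaling to TPM left 4 lower, with the calls of Psmd6 and Psmd12 lost, and 2 higher, beside 20.9% and 38.6%. Psmd7, the partner of Psmd14, had 86.2, 89.7 and 88.4 FPKM in HL, 91.5, 74.7 and 81.8 FPKM in H, and 131, 131 and 130.5 FPKM in NC. Its HL and H values overlapped and both were below NC (log2 fold changes -0.67 in H and -0.57 in HL). Psmd14 had log2 fold changes of -0.48 in H against NC and -0.34 in HL against NC.

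Psmd11, a scaffold of the lid, went the other way. It had 74.4, 68.4 and 71.6 FPKM in HL, 146, 109.8 and 127 FPKM in H, and 88.2, 89.2 and 90.1 FPKM in NC. Every H library lay above every NC library, and every HL library below. The difference was log2 fold change 0.51, SE 0.09, adjusted p = 0.00101 in H against NC, log2 fold change -0.83, SE 0.09, adjusted p = 1.05e-04 in HL against H, and log2 fold change -0.32, adjusted p = 0.0167 in HL against NC. In TPM the last of these was -0.22 (adjusted p = 0.0720), while the other comparisons stayed past the threshold.

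Psmd8, another lid scaffold, was the one member higher in HL than in NC. Its values were 230.2, 228 and 221 FPKM in HL, 155, 155 and 170.5 FPKM in H, and 160.5, 165 and 161 FPKM in NC. The H and NC values overlapped (log2 fold change -0.02, adjusted p = 0.766), and every HL library lay above all others (log2 fold change 0.50, SE 0.05, adjusted p = 6.03e-05 against H, and log2 fold change 0.48, SE 0.05, adjusted p = 8.37e-05 against NC). Both differences passed in all 19 alternative settings.

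**Figure D3:**
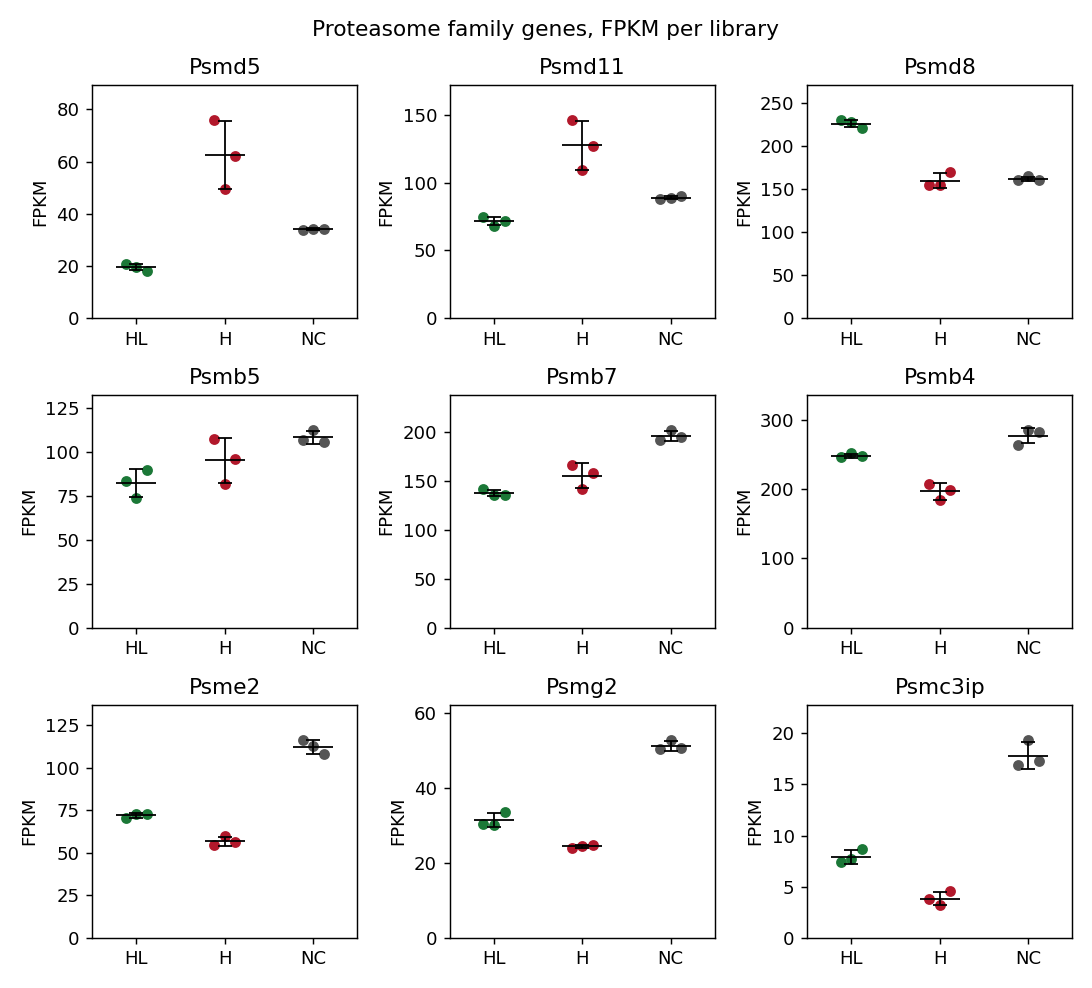
FPKM (vertical axis, from 0) of 9 members in each library of HL, H and NC, as points, with the mean as a bar and the SD of 3 libraries as error bars. Psmd5 and Psmd11 are highest in H (49.4 to 75.7 and 110 to 146 FPKM), Psmd8 is highest in HL (221 to 230 FPKM), and Psme2, Psmg2 and Psmc3ip are highest in NC.

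The largest change among the 46 proteasome genes in any comparison was that of Psmd5 in HL against H. Psmd5 is one of the chaperones that assemble the base of the 19S particle and leave it afterwards. It had 20.7, 19.7 and 18.1 FPKM in HL, 75.7, 49.4 and 62.2 FPKM in H, and 33.6, 34.3 and 34.2 FPKM in NC. The H libraries were the highest and the most spread, the HL libraries the lowest, and no groups overlapped. H was higher than NC (log2 fold change 0.85, SE 0.13, adjusted p = 3.98e-04), HL lower than H (log2 fold change -1.66, SE 0.13, adjusted p = 1.81e-05) and HL lower than NC (log2 fold change -0.80, SE 0.13, adjusted p = 9.57e-04), and all 3 passed in each of the 19 alternative settings. In HL against H it was the one member that fell by more than 2-fold, beside 5.83% of all tested genes. The other chaperones of the base, Psmd9 and Psmd10 (gankyrin), did not pass in H against NC, and both were lower in HL than in NC (log2 fold changes -0.55 and -0.22). Psmd9 was spread in H, with 19.2, 11.0 and 15.6 FPKM.

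Psmg1 to Psmg4, 4 of the chaperones that assemble the 20S core, all fell in H against NC. Their median log2 fold change was -0.86, beside -0.44 for the 14 core subunits. All 4 were also lower in HL than in NC, with a median of -0.60 beside -0.28. Beside these counts, 33.0% of all tested genes were lower in H against NC and 27.2% in HL against NC. The difference between these 4 chaperones and the core was not tested. Pomp, a core chaperone outside these symbols, averaged 154 FPKM in HL, 157 in H and 190 in NC. It did not pass in H against NC (log2 fold change -0.28, adjusted p = 0.0561). Pomp was lower in HL than in NC (log2 fold change -0.32, adjusted p = 0.0385) and is not in the sums of chaperones. Psmg2 had 30.5, 30.2 and 33.6 FPKM in HL, 24.0, 24.6 and 24.7 FPKM in H, and 50.3, 52.8 and 50.7 FPKM in NC. The groups did not overlap (log2 fold change -1.07, SE 0.06, adjusted p = 6.95e-07 for H against NC, and log2 fold change 0.36, SE 0.06, adjusted p = 8.61e-04 for HL against H). Its partner in the first heterodimer of ring assembly, Psmg1, had 25.4, 26.7 and 26.6 FPKM in HL, 21.1, 18.4 and 22.5 FPKM in H, and 36.2, 39.8 and 38.0 FPKM in NC. Psmg1 likewise fell in H against NC (log2 fold change -0.88) and was higher in HL than in H (log2 fold change 0.35, adjusted p = 0.00584). Psmg3 and Psmg4 did not pass in HL against H (log2 fold changes 0.14 and 0.18). Summed over the 4 genes the level was 94.9 ± 0.449 FPKM in HL, 78.4 ± 1.83 FPKM in H and 144 ± 3.24 FPKM in NC (SD, n = 3 each).

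**Figure D4:**
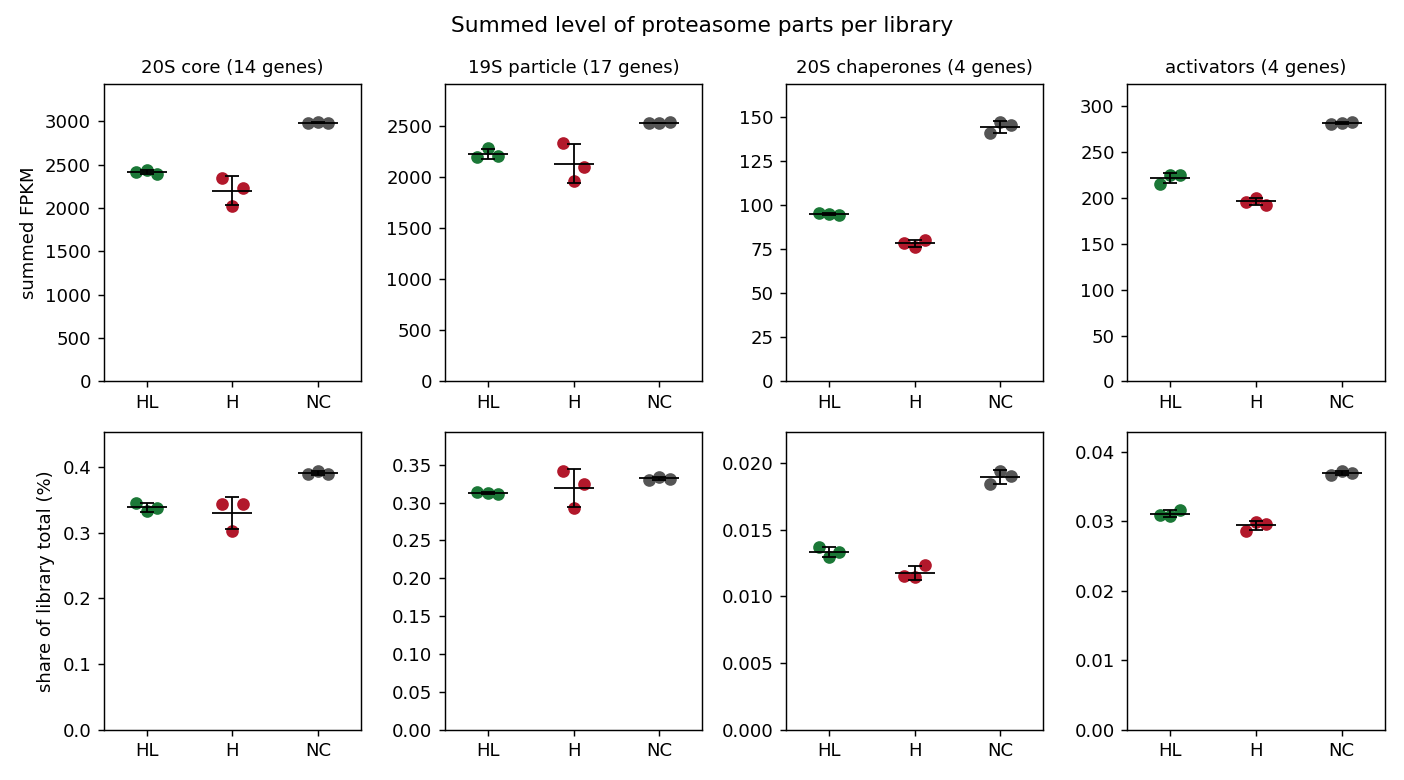
Summed FPKM (top row) and share of the library total in % (bottom row), as points per library of HL, H and NC. The mean and SD of 3 libraries are drawn. The parts are the 14 standard 20S subunits, 17 subunits of the 19S particle and 4 chaperones of the 20S core (Psmg1 to Psmg4). Also drawn are 4 activators (Psme1, Psme2, Psme3 and Psme4). In the 20S chaperones the groups are apart in both rows, with 94.9 FPKM in HL, 78.4 in H and 144 in NC, while the share of the 19S particle in H spans the values of HL and NC.

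Among the activators, PA28 is a ring of Psme1 and Psme2. Psme2 had 70.4, 72.7 and 72.9 FPKM in HL, 54.6, 59.8 and 56.2 FPKM in H, and 116, 113 and 108 FPKM in NC. It fell in H against NC (log2 fold change -0.98, SE 0.05, adjusted p = 6.42e-07), was higher in HL than in H (log2 fold change 0.34, adjusted p = 6.76e-04) and lower in HL than in NC (log2 fold change -0.64), with no overlap between any groups. Psme1 fell in H against NC by 0.29 on the log2 scale, with means of 51.5 ± 1.48 FPKM in HL, 48.9 ± 2.75 FPKM in H and 59.8 ± 1.69 FPKM in NC (SD, n = 3 each). The nuclear Psme3 (PA28 gamma) had log2 fold changes of -0.26 in H and -0.25 in HL against NC. Psme4, which encodes PA200, fell in H against NC (log2 fold change -0.31, adjusted p = 0.00623) and was higher in HL than in H (log2 fold change 0.33, adjusted p = 0.00617). Psmf1, the inhibitor PI31, passed in no comparison on the deposited scale. After rescaling to TPM, Psmf1 was higher in H than in NC and lower in HL than in H. The lower calls of Psme1 and Psme3 against NC were lost in TPM in both H and HL, and that of Psme4 in H.

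Psme2b, a copy of Psme2 with nearly the same sequence, had 3.72, 2.42 and 3.74 FPKM in HL, 0.464, 1.19 and 2.25 FPKM in H, and 1.92, 2.57 and 3.36 FPKM in NC. Each value rests on 5.96 to 45.9 fragments, and reads could be split between Psme2b and Psme2, so its level is uncertain. Its H and NC values overlapped (log2 fold change -1.15, SE 0.45, adjusted p = 0.0527), and HL exceeded H without overlap (log2 fold change 1.48, SE 0.45, adjusted p = 0.0240), a call lost in 4 of the 19 alternative settings.

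Psmc3ip, the recombination partner that is no proteasome subunit, had the largest change of the 47 in H against NC. It had 7.38, 7.73 and 8.69 FPKM in HL, 3.76, 3.18 and 4.52 FPKM in H, and 16.9, 19.3 and 17.3 FPKM in NC. The groups did not overlap in any comparison (log2 fold change -2.20, SE 0.13, adjusted p = 1.12e-06 in H against NC, log2 fold change 1.04, SE 0.13, adjusted p = 1.97e-04 in HL against H, and log2 fold change -1.16, SE 0.13, adjusted p = 1.21e-04 in HL against NC). With Psme2b, it was one of 2 members more than 2-fold higher in HL than in H, beside 3.55% of all tested genes. It was also the only one more than 2-fold lower in HL than in NC, beside 2.41%. No member was more than 2-fold higher in HL than in NC, beside 6.3%. Without Psmc3ip, 34 of 46 genes were lower and 2 higher in H against NC, and 14 were higher and 4 lower in HL against H.

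**Figure D5:**
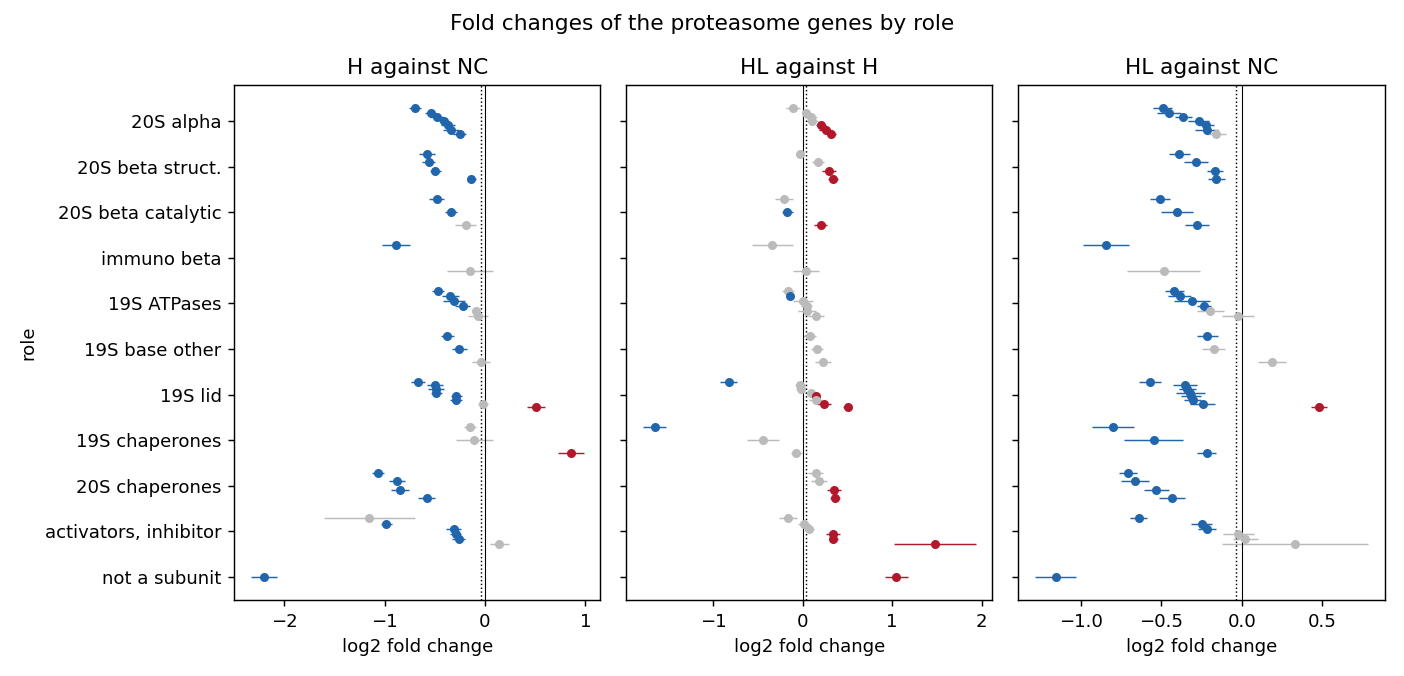
log2 fold change (horizontal axis) with its standard error for each of the 47 members, by role (vertical axis), in H against NC, HL against H and HL against NC. Blue and red points passed an adjusted p of 0.05 (lower and higher), grey points did not, and the dotted line is the median of all tested genes (-0.04, 0.04 and -0.04). In H against NC all points of the 20S chaperones lie between -1.07 and -0.58, and Psmd5 (0.85) and Psmd11 (0.51) are the red points.

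Within H, the replicates were ordered alike for many members. H replicate 1 had the highest of the 3 values for 36 of 47 members and H replicate 2 the lowest for 31, and the members summed to 5127 FPKM in H replicate 1, 4379.5 in H replicate 2 and 4755 in H replicate 3. Without H replicate 1, 23 members were higher in HL than in H, without H replicate 2, 9 were lower, and without HL replicate 1 or HL replicate 3, 2 were lower. In HL against NC, 2 members were higher without H replicate 1 or H replicate 2. In H against NC, the count of lower members was 32 to 37 whichever library was left out.

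The proteins that work with the proteasome but lie outside these symbols moved in both directions. Of 18 tested partners (receptors, shuttles, deubiquitinases and helpers), 9 were lower and 5 higher in H against NC, 7 lower and 3 higher in HL against H, and 8 lower and 5 higher in HL against NC. Over all tested genes, 33.0% were lower and 27.1% higher in H against NC, 21.7% and 26.7% in HL against H, and 27.2% and 21.6% in HL against NC. Zfand2a (AIRAP), known to bind the proteasome under arsenite and heat stress, stood out with 31.6 ± 1.68 FPKM in HL, 152 ± 28.1 FPKM in H and 11.9 ± 0.802 FPKM in NC (SD, n = 3 each). Its log2 fold change was 3.65 in H against NC (adjusted p = 1.12e-07), -2.25 in HL against H (adjusted p = 2.71e-06) and 1.40 in HL against NC.

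Among 11 genes of ubiquitin itself, its activation and the VCP unfoldase, 3 were higher and 2 lower in H against NC, beside 27.1% and 33.0% of all tested genes. Both counts were near or under that background. Rps27a, which encodes ubiquitin fused to a ribosomal protein, had 1313 ± 92.1 FPKM in HL, 986 ± 70.7 FPKM in H and 1631 ± 24.2 FPKM in NC (SD, n = 3 each). It was lower in H than in NC (log2 fold change -0.73) and higher in HL than in H (log2 fold change 0.41). In HL against H, 2 were higher and 4 lower, beside 26.7% and 21.7%, and in HL against NC, 1 was higher and 2 lower, beside 21.6% and 27.2%.

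Proteasome genes are known to be induced together by NFE2L1 (NRF1), which pairs with small MAF proteins at antioxidant response elements when proteasome activity is short. The 7 genes listed for that pathway were Nfe2l1, Ddi2, Ngly1, the small MAFs Mafk, Maff and Mafg, and also Nfe2l2. Nfe2l2 encodes NRF2, a factor distinct from NRF1. Of the 7, 3 were higher (the small MAFs) and 0 lower in H against NC. In HL against H, 1 was higher (Nfe2l2, log2 fold change 0.32, adjusted p = 0.00327) and 4 lower. In HL against NC, 4 were higher, Nfe2l2 among them, and 1 lower. The shares of all tested genes are those just given. Mafk, a small MAF, had 14.6 ± 0.538 FPKM in HL, 38.7 ± 6.78 FPKM in H and 11.2 ± 0.463 FPKM in NC (SD, n = 3 each), with log2 fold changes of 1.77 in H against NC and -1.39 in HL against H. Mafg was also higher in H (log2 fold change 1.05). Nfe2l1 itself did not pass in H against NC (log2 fold change 0.15, adjusted p = 0.0948). Neither did Ddi2 (log2 fold change 0.15, adjusted p = 0.149) nor Ngly1 (log2 fold change -0.26, adjusted p = 0.115).

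In the MHC class I pathway, which uses proteasome products, 5 of 14 genes were higher and 5 lower in H against NC, 4 and 4 in HL against H, and 5 and 4 in HL against NC, beside 27.1% and 33.0%, 26.7% and 21.7%, and 21.6% and 27.2% of all tested genes. Tapbp (tapasin) and Nlrc5, an activator of class I genes, were higher in H than in NC (log2 fold changes 1.14 and 1.41), and Erap1, which trims peptides, was lower (log2 fold change -1.20). Of the muscle ligases, Fbxo32 (MAFbx) had 19.2 ± 0.913 FPKM in HL, 16.8 ± 4.30 FPKM in H and 7.27 ± 0.313 FPKM in NC (SD, n = 3 each), with log2 fold changes of 1.17 in H against NC and 1.39 in HL against NC, and it did not pass in HL against H (log2 fold change 0.21, adjusted p = 0.259). Trim63 (MuRF1) averaged 0.955 FPKM in HL, 0.926 in H and 0.119 in NC and was below the filter.

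Since the members moved mostly together and Psmd5 and Psmd11 apart from them, their promoters were read. RefSeq (GRCm38.p6) gave 43 windows of 250 bases before the start for 40 of the 47 genes. The core of the antioxidant response element, TGACNNNGC on either strand, was found in 5 of the 40 genes (Psmb5, Psmb6, Psmc6, Psmd9 and Psmd12), that is in 11.6% of their windows, against 10.2% of all 32851 windows. The CCAAT box (CCAAT, both strands) was in 30.2% of the members' windows, against 33.9% of all windows, and the GC box (GGGCGG, both strands) in 51.2%, against 32.7%. The core of NFAT5, a factor of osmotic stress (TGGAAA, both strands), was in 18.6% of both. Of 2 forms of the E2F site (both strands), TTTCCCGC was in 2.33% of the members' windows, against 0.895% of all, and TTTGGCGC in none, against 0.417%. The 32851 windows were not limited to the 13674 tested genes, and no difference in share was tested. A match is a run of letters and not a bound site. Shown 5′ to 3′ are the 120 bases before the start of 2 catalytic subunits, Psmb5 and Psmb6, with the core in capitals. On the deposited scale both were lower in HL than in NC, and Psmb6 but not Psmb5 was lower in H than in NC. Psmd5 and Psmd11, higher in H and lower in HL than in NC, are also shown, and their windows held no such core. The windows of lower members such as Psma7 and Psme2 held none either. A link between the core and the direction of change was not tested.
Psmb5, chr14:54617996-54618115, minus strand: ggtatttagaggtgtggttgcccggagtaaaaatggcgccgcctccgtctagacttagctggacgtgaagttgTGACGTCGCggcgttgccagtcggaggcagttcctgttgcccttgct
Psmb6, chr11:70525237-70525356, plus strand: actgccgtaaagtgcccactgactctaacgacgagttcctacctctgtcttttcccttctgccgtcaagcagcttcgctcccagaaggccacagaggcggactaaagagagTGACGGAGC
Psmd5, chr2:34870963-34871082, minus strand: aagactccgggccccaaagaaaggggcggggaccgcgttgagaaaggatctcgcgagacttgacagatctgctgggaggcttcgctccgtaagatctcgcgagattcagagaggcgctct
Psmd11, chr11:80428495-80428614, plus strand: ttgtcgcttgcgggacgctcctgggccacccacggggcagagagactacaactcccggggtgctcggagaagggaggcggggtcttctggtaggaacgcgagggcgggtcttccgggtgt
In Psmb5 the core lay 47 to 39 bases before the start and in Psmb6 it ended at the last base before it. Psmc6 and Psmd12 held the core farther from the start, and in Psmd9 it overlapped a GC box.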

How the data were processed

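Messenger RNA of 9 C2C12 samples was sequenced on an Illumina HiSeq. Per the methods and notes, the authors trimmed reads with fastp, aligned them with HISAT2 (version 2.1.0) and computed FPKM with StringTie (version 1.3.3b). The notes name mm39, the methods a human genome, and the identifiers are mouse Ensembl. The name of the deposited table points to salmon as quantifier, so which tool made the values is uncertain. The deposited FPKM are not counts, so no count test was run.

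Tests used limma (version 3.58.1, trend and robust options, R 4.3.3) on log2(FPKM + 0.1), a scale that understates changes of low genes. A single model of the 9 libraries left 6 residual degrees of freedom, and Benjamini-Hochberg adjustment ran over 13674 genes in each comparison. The study's thresholds add an absolute log2 fold change over 1. The 3 comparisons share libraries. The same code was tested on simulated data that gave every group the spread of NC. That check does not cover the wider spread of H.

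Depth came from values of single-transcript genes, 99.4 to 99.7% of them within 0.1 of a whole number of fragments. The alternatives were pseudocounts of 1 and 0.01, no filter or a mean FPKM of 5, TPM, variance weights per group, centring on the median, no robust option, only the groups compared, a replicate block and leaving out each library.

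The text names, in each role, members past both thresholds, the 2 largest changes without overlap in each comparison, the catalytic subunits and the highest and lowest levels; others are named as part of their role. Some items that the rule takes are not reported here. Members, lists and rules were chosen with earlier results of these data known.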

Additional observations from a re-analysis of the deposited data

How the results depend on the processing

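Of 63 values of 31 members chosen by the naming rule, 42 kept their direction and their side of the threshold in all 19 alternatives. Rescaling to TPM gave 21 lower and 4 higher members in H against NC (median -0.15, with 1 lower and 1 higher by more than 2-fold), 10 lower members in HL against H (median -0.00049, 1 higher by more than 2-fold), and 22 lower and 2 higher in HL against NC (median -0.22). Without a filter, the members' median minus that of all genes was -0.43 in H against NC and 0.15 in HL against H, since more genes enter. Members more than 2-fold higher in HL than in H numbered 0 with a pseudocount of 1, and 1 without a filter or with a mean FPKM of 5. Fitting only the groups compared gave 2 lower members in HL against H and 2 higher in HL against NC, and variance weights also 2 higher in HL against NC. The cause of the other shifts was not tested.

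Leaving out 1 library at a time, H against NC gave 32 to 37 lower and 2 to 3 higher members, 2 to 3 and 0 to 1 by more than 2-fold, a median of -0.44 to -0.29, and -0.40 to -0.26 relative to all genes. HL against H gave 10 to 23 higher and 2 to 9 lower members, 0 to 2 higher by more than 2-fold, and a median of 0.06 to 0.16, or 0.02 to 0.12 relative to all genes. HL against NC gave 30 to 40 lower and 1 to 2 higher members.

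Psmb8 in H against NC, not past the threshold, was 0.042 in TPM and ranged from -0.35 to 0.077 with 1 library left out (0.077 without NC replicate 2). Psmb10 in HL against H, also not past it, was -0.058 in TPM and ranged from -0.055 (without H replicate 3) to 0.21, also turning without H replicate 2 and without HL replicate 3.

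With each gene's group mean taken out, the deviations of same-numbered samples correlated by -0.04 to 0.09, so the numbers were not taken as pairs. With the replicate block, H against NC gave 35 lower and 2 higher members, HL against H 3 lower and 14 higher, and HL against NC 36 lower and 1 higher.

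With 3 libraries a group, all from 1 cell line, small changes such as those of Psmb6 and Psmb7 in HL against H cannot be settled. Psme2b rests on few fragments.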
